A study of Mus musculus with 6 samples.

Results

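The protein arginine methyltransferases are the enzymes that place methyl groups on arginines of histones and of RNA-binding proteins. The 8 genes described here, *Prmt1*, *Prmt2*, *Prmt3*, *Carm1*, *Prmt5*, *Prmt6*, *Prmt7*, and *Prmt9*, were taken by their symbols from the 26264 genes in a table of bulk RNA-seq from mouse HSCs. The comparison asks how their transcripts differ between HSCs with and without IRF1, a transcription factor of the interferon response.

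HSCs were sorted as Lin-Sca-1+Kit+CD150+CD48- cells from the bone marrow of untreated, 8-week-old female mice. WT mice were C57Bl/6, and *Irf1-/-* mice carried the B6.129S2-Irf1 tm1Mak/J allele. There were 3 mice of each genotype, with 1 library per mouse, numbered here as replicates 2, 3, and 4. IRF1 was missing from the whole body, so the HSCs of *Irf1-/-* mice also lived among other *Irf1-/-* cells. Reads on genes numbered 59658080, 45332573, and 43267486 in the WT libraries and 43138521, 57281017, and 45129929 in the *Irf1-/-* libraries, in the order of the replicate numbers. This order is kept below. Values are normalized counts, that is, the reads of a gene divided by a size factor of the library.

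*Irf1* had normalized counts of 10122, 11120, and 12057.5 in WT and of 9267, 9524, and 9287 in *Irf1-/-* libraries. All 3 *Irf1-/-* values lay below the WT values, but the mean was still 84.3% of the WT mean (log2 fold change -0.24, limma adjusted *P* = 0.170). Each gene has a value for its whole length only, so these reads do not show whether the targeted part of the gene is missing, and the genotype rests on the labels. All 8 genes that mark HSCs were counted in every library, with *Kit*, the receptor for stem cell factor, as the most abundant of them (mean 82379). Markers of mature cells ranged widely. The 4 megakaryocyte genes were all well counted, from *Gp1ba* (1011 to 2231) to *Itga2b* (18422 to 45662), and of the erythroid genes *Klf1* was between 569 and 1396 and *Epor* between 1594 and 2509.7. Of the B cell genes, *Cd79b* had a mean of 2799.8, while *Cd79a*, *Ms4a1*, and *Pax5* were between 2.47 and 51.6. Of the T cell genes, *Lck* had a mean of 959.7, while *Cd3d*, *Cd3e*, *Cd3g*, and *Cd8a* were between 0 and 52.7. *Hba-a1* and *Hbb-bs*, which encode globins and have near-identical copies, were listed at 0 in all 6 libraries. WT replicate 4 stood apart in *S100a8*, *S100a9*, and *Ly6g*, genes of mature granulocytes, but not in the other granulocyte and monocyte genes. *S100a8* was at 1033 there and between 13.5 and 110 in the other libraries, *S100a9* was at 1246 against 10.1 to 131, and *Ly6g* was at 46.3 against 0 to 1.07. *Elane* and *Mpo* were highest in *Irf1-/-* replicate 4 (67.5 and 355), *Csf1r* in WT replicate 3 (385), and *Lyz2* in *Irf1-/-* replicate 3 (31462). The most abundant of the 7 granulocyte and monocyte genes was *Lyz2* (mean 26988), and the 7 genes together summed to 23718, 29811, and 28900.1 in WT and to 26257.5, 32072, and 27405 in *Irf1-/-* libraries.

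As background, most members of the family put a second methyl group on the same nitrogen (asymmetric dimethylation, type I), while PRMT5 and PRMT9 put it on the other nitrogen (symmetric dimethylation, type II) and PRMT7 leaves a lone methyl group (type III). All take the methyl group from S-adenosylmethionine. PRMT1 carries out most asymmetric dimethylation in mammalian cells, PRMT5 works in a complex with WDR77 and is needed to maintain HSCs and to methylate the Sm proteins of the splicing machinery, and CARM1 (also known as PRMT4) methylates transcriptional coactivators.

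All 8 genes were well detected in every library, with between 1311 and 12386 reads per gene and library, and all 8 passed the filter for testing, a mean normalized count of at least 10. None of them met the threshold for a difference between genotypes. With limma, 0 of 8 genes had an adjusted *P* under 0.05 with an absolute log2 fold change above 0.58, against 333 of the 17404 genes tested (1.91%; 167 higher and 166 lower in *Irf1-/-* HSCs). By the adjusted *P* alone the count was also 0 of 8, against 3.22% of genes tested. At an unadjusted *P* under 0.05 the count was 2 of 8 (*Prmt1* and *Prmt2*), against 16.5%. edgeR and DESeq2 also gave 0 of 8 by the adjusted *P*. By the unadjusted *P* they gave 3 of 8, against 16.7% of genes tested by edgeR, and 2 of 8, against 22% by DESeq2. The unadjusted counts rest on 2 or 3 genes, and nothing is read from them. In bulk RNA, fewer cells with a transcript and less of it per cell cannot be told apart.

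The direction was the same for most members. The fold change was below 0 for 7 of 8 genes, against 50.4% of genes tested, and *Prmt2* was the exception. *Prmt9* was so close to 0 that its sign turned with quantile normalization, with scaling to total reads, or without WT replicate 3. The median log2 fold change was -0.11 for the 8 genes and -0.003 for all genes tested. The median of the 8 genes was -0.06 with quantile normalization, -0.06 with scaling to total reads (with all genes tested at 0.04), -0.07 without WT replicate 3, and -0.17 without WT replicate 4.

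**Figure D1:**
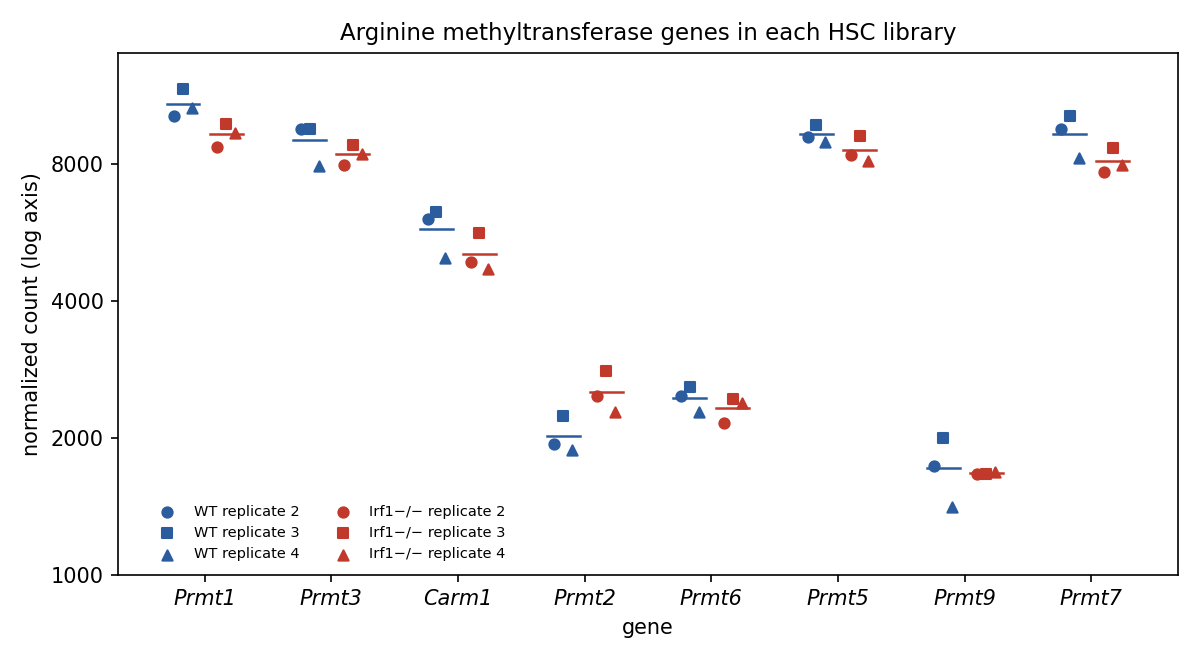
Normalized counts (log axis) of the 8 arginine methyltransferase genes in each library, with type I enzymes on the left, followed by type II (*Prmt5* and *Prmt9*) and type III (*Prmt7*). Symbols give the replicate number, colors the genotype, and lines the mean of 3 libraries. *Prmt1* was lower in all 3 *Irf1-/-* libraries (8719 to 9777) than in WT (10193 to 11664), *Prmt2* was higher, and the other 6 genes overlapped.

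Among the type I enzymes, *Prmt1* had normalized counts of 10193, 11664, and 10597 in WT and of 8719, 9777, and 9326 in *Irf1-/-* HSCs. The highest *Irf1-/-* library, replicate 3, lay below the lowest WT library, replicate 2, so the genotypes did not overlap. The mean was 10818 ± 760.2 (SD, n = 3) in WT and 9274 ± 531 in *Irf1-/-* HSCs. This is a log2 fold change of -0.22 (SE 0.0879, 95% interval -0.41 to -0.03; limma adjusted *P* = 0.216).

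*Prmt2* encodes a type I enzyme with low activity of its own and an SH3 domain, and acts as a coregulator of nuclear receptors. Its normalized counts were 1931, 2232, and 1878 in WT and 2464, 2806, and 2272 in *Irf1-/-* HSCs. It was the only member of the 8 that was higher in all *Irf1-/-* libraries, by a narrow gap, since *Irf1-/-* replicate 4 was just above WT replicate 3. The mean was 2014 ± 191 (SD, n = 3) in WT and 2514 ± 270.3 in *Irf1-/-* HSCs, or 125% of WT, and the log2 fold change was 0.32 (SE 0.112, 95% interval 0.08 to 0.56; limma adjusted *P* = 0.156). Across 17 alternative fits the log2 fold change of *Prmt2* was between 0.24 and 0.39 and its adjusted *P* between 0.0502 and 0.404. The lowest of these, from limma after scaling each library to the same total, was just short of the threshold.

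*Prmt3*, whose product is cytosolic and methylates the ribosomal protein RPS2, had normalized counts of 9547, 9523, and 7923 in WT and of 7956, 8788, and 8409.7 in *Irf1-/-* HSCs. WT replicate 4 was the lowest of the 6 libraries, and the other WT libraries were above all 3 of *Irf1-/-*. *Carm1* had 6048, 6262, and 4968 in WT and 4874, 5633, and 4699 in *Irf1-/-* HSCs. For *Carm1*, WT replicate 4 lay among the *Irf1-/-* libraries. *Prmt6*, which encodes a nuclear enzyme that methylates histone H3, had 2466, 2585, and 2273 in WT and 2158, 2429.9, and 2378 in *Irf1-/-* HSCs, with overlap between the genotypes. The log2 fold changes of these 3 genes were -0.10 for *Prmt3*, -0.18 for *Carm1*, and -0.07 for *Prmt6*, with 95% intervals of -0.30 to 0.11, -0.41 to 0.05, and -0.29 to 0.14 and limma adjusted *P* values of 0.694, 0.455, and 0.807. Without single libraries *Prmt3* was between -0.19 (WT replicate 4 left out) and -0.05 (WT replicate 2), *Carm1* between -0.28 (WT replicate 4) and -0.12 (WT replicate 3), and *Prmt6* between -0.12 (WT replicate 4) and -0.02 (*Irf1-/-* replicate 2). With quantile normalization and with scaling to total reads, *Prmt3* was at -0.05 in both and *Prmt6* at -0.05 and -0.03. *Carm1* overlaps *Yipf2* in the RefSeq genes of GRCm38.p6. The strand setting of the counting is not given in the sources used here, so reads from the shared stretch may be uncertain for both genes. *Yipf2* was between 1866 and 2411.

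Of the type II enzymes, *Prmt5* had normalized counts of 9169, 9735, and 8928 in WT and of 8367, 9217, and 8098 in *Irf1-/-* HSCs. Only *Irf1-/-* replicate 3 reached into the WT range. The mean was 9277 ± 414 (SD, n = 3) in WT and 8561 ± 584 in *Irf1-/-* HSCs, and the log2 fold change was -0.12 (SE 0.0862, 95% interval -0.30 to 0.07; limma adjusted *P* = 0.577). It was -0.06 with quantile normalization and -0.07 with scaling to total reads. *Prmt9*, whose product methylates the splicing factor SF3B2, had 1735, 1996, and 1410.4 in WT and 1666, 1665, and 1679 in *Irf1-/-* HSCs. The *Irf1-/-* libraries of *Prmt9* were nearly equal and lay inside the wide WT range, with a log2 fold change of -0.02 (95% interval -0.29 to 0.25; limma adjusted *P* = 0.963). Leaving out WT replicate 3 gave 0.09, and leaving out WT replicate 4 gave -0.16.

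*Prmt7*, the type III enzyme, had normalized counts of 9522, 10194, and 8217 in WT and of 7657, 8657, and 7945 in *Irf1-/-* HSCs. WT replicates 2 and 3 were above all *Irf1-/-* libraries, and WT replicate 4 was below *Irf1-/-* replicate 3. The log2 fold change was -0.20 (SE 0.0969, 95% interval -0.41 to 0.01; limma adjusted *P* = 0.328), and it was -0.13 without WT replicate 3.

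**Figure D2:**
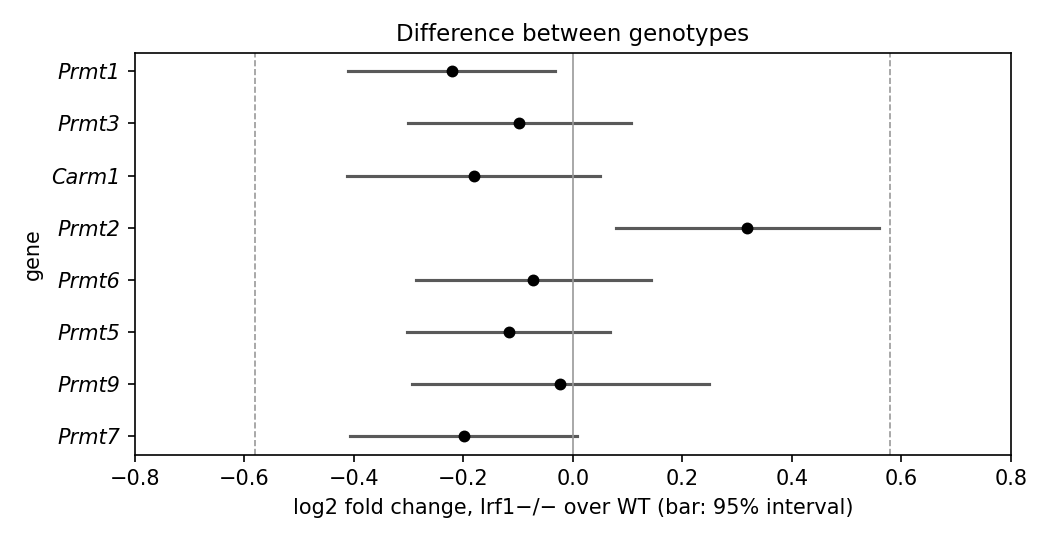
Log2 fold change of each gene, *Irf1-/-* over WT (x axis), with its 95% interval from limma as a bar. Dashed lines mark the threshold of 0.58 in either direction, which no interval reached, and 7 of 8 points were below 0.

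A missed threshold does not show that a gene was equal in both genotypes, and the intervals give the sizes that remain possible. All 8 lay between -0.41 and 0.56, within the threshold of 0.58 on either side. The upper end for *Prmt2* passed the threshold in 4 alternative limma fits, at 0.63 with no intensity trend, 0.62 and 0.66 without *Irf1-/-* replicates 2 and 4, and 0.65 without WT replicate 3. WT replicate 4 was the library that stood apart in *S100a8*, *S100a9*, and *Ly6g*. Without it, 0 of 8 genes had an adjusted *P* under 0.05 with limma and 4 of 8 had an unadjusted *P* under 0.05, against 21.5% of genes tested in that fit. The log2 fold changes were then -0.24 for *Prmt1*, 0.27 for *Prmt2*, -0.28 for *Carm1*, and -0.29 for *Prmt7*, and the lowest adjusted *P* was 0.0848, for *Prmt7*.

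Values did not overlap between genotypes for 2 of 8 genes, *Prmt1* and *Prmt2*, against 19.9% of genes tested. Most members also had the same highest library in each genotype, and the share of all genes with such a pattern was not counted. Replicate 3 was the highest library of its genotype for 7 of 8 genes in WT and for 7 of 8 in *Irf1-/-* HSCs, and WT replicate 4 was the lowest WT library for 7 of 8. The sums of all normalized counts were 49093377, 51087569, and 46546804 in WT and 45987191, 49498400, and 46849457 in *Irf1-/-* libraries, so replicate 3 had the highest sum of each genotype. When the libraries were scaled to equal sums, a choice made after seeing the data, 4 of 8 genes did not overlap, against 22.6% of 17432 genes. With quantile normalization the count was 3 of 8 (*Prmt1*, *Prmt2*, and *Prmt7*), against 23.2%, and with TMM scaling it was 2 of 8, against 20.1%. With equal sums, in normalized counts per 1000000 of the sum, *Prmt5* had 187, 191, and 192 in WT and 182, 186, and 173 in *Irf1-/-* HSCs, and *Prmt7* had 194, 199.5, and 177 against 167, 175, and 169.6. The gaps for these 2 genes were small, and the adjusted *P* with limma remained at 0.606 for *Prmt5* and 0.239 for *Prmt7*. The shared order of libraries also depended on the scaling. With equal sums, replicate 3 was not the highest WT library for *Prmt3*, *Carm1*, and *Prmt5*. It was not the highest *Irf1-/-* library for *Prmt1*, *Prmt3*, *Prmt6*, and *Prmt9*. WT replicate 4 was then not the lowest WT library for *Prmt1*, *Prmt2*, and *Prmt5*.

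Levels of different genes were compared as normalized counts per kilobase of the longest transcript in GENCODE vM1. *Prmt1* was the most abundant in WT HSCs, at 5039 ± 354 per kilobase (SD, n = 3). It was followed by *Prmt3* at 3589 ± 371 and *Prmt5* at 3447 ± 154, whose ranges overlapped. *Prmt7* came next at 2682 ± 289.6 and *Carm1* at 1726 ± 208. The low end was held by *Prmt2* at 959 ± 91.0, *Prmt6* at 800.2 ± 51.6, and *Prmt9* at 616 ± 105. In *Irf1-/-* HSCs the order was the same, and again only *Prmt3* and *Prmt5* overlapped among neighbors. By coding length in place of transcript length, *Prmt6* stood above *Prmt2* in both genotypes and the other ranks were equal. *Prmt8*, a brain enzyme outside the 8 genes, was listed at 0 in 4 of 6 libraries and at 1.13 and 5.19 in WT replicate 3 and *Irf1-/-* replicate 4.

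On this scale the type I enzymes made up 64.2 ± 0.185% (SD, n = 3) of the summed level in WT and 64.6 ± 0.442% in *Irf1-/-* HSCs. The type II enzymes made up 21.6 ± 0.345% and 21.9 ± 0.539%, and *Prmt7* 14.2 ± 0.528% and 13.5 ± 0.106%. The balance between the types was thus close in the 2 genotypes. Within the family, the share of *Prmt2* was 5.08 ± 0.188% in WT and 6.93 ± 0.453% in *Irf1-/-* HSCs, and that of *Prmt1* was 26.8 ± 1.59% and 25.0 ± 0.615%. These shares are descriptions and were not tested.

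Partners of the enzymes were looked at next. PRMT5 is active as a complex with WDR77, and the adaptors pICln (*Clns1a*), RIOK1, and COPR5 (*Coprs*) guide it to its targets. *Wdr77* had normalized counts of 13645, 14985, and 12489.9 in WT and of 12330, 12844, and 12811 in *Irf1-/-* HSCs, with overlap and a log2 fold change of -0.11 (-0.18 to -0.04 without single libraries). The log2 fold changes of the adaptors were -0.17 for *Clns1a* (-0.23 to -0.08 without single libraries), -0.06 for *Riok1* (-0.11 to -0.03), and 0.39 for *Coprs* (0.29 to 0.53), and none of these 4 genes had an adjusted *P* under 0.05 with limma, edgeR, or DESeq2, nor an unadjusted *P* under 0.05 with limma, while *Coprs* had one with DESeq2. *Epb41l3*, whose product binds PRMT3, was at 0.40 (0.15 with *Irf1-/-* replicate 3 left out and 0.61 with replicate 4 left out), with an unadjusted *P* under 0.05 with edgeR and DESeq2 but not with limma.

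*Btg2*, an antiproliferative gene whose product binds PRMT1, fell past the threshold. It had normalized counts of 1758, 1840.3, and 1359 in WT and of 1341, 954, and 923 in *Irf1-/-* HSCs. The genotypes did not overlap, with WT replicate 4 just above *Irf1-/-* replicate 2. The log2 fold change was -0.63 (SE 0.159, 95% interval -0.97 to -0.29; limma adjusted *P* = 0.0460). The call was close to the threshold, and the adjusted *P* was 0.121, 0.192, 0.143, and 0.181 without *Irf1-/-* replicates 3 and 4 and WT replicates 2 and 3, 0.0521 with quantile normalization, 0.0510 with TMM scaling, 0.0622 with scaling to total reads, and 0.330 with no intensity trend, all with the same direction. Its relative *Btg1* was at -0.04 (-0.06 to -0.01 without single libraries, and 0.004 with scaling to total reads). Of the 7 partners, 1 was called lower and 0 higher, with limma, against 1.91% of genes called in either direction, and that gene was also the only one past the adjusted *P* with edgeR and DESeq2. At an unadjusted *P* under 0.05 there were 1 of 7 with limma, 2 of 7 with edgeR, and 3 of 7 with DESeq2, against 16.5%, 16.7%, and 22% of genes tested. The median log2 fold change of the partners was -0.06, and it was -0.03 with quantile normalization, -0.02 with scaling to total reads, and -0.03 and -0.11 without WT replicates 3 and 4.

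Of 25 genes whose products are known to be arginine methylated, 19 had a log2 fold change below 0, and the median was -0.11 (-0.06 with scaling to total reads and -0.16 without WT replicate 2). By the adjusted *P* of limma, 1 of 25 was lower and 0 were higher, against 1.49% of genes tested lower and 1.73% higher. That gene was *Snrpd1*, which encodes the Sm protein SmD1. It had normalized counts of 4259, 3862, and 3991 in WT and of 2728, 3384, and 2950.3 in *Irf1-/-* HSCs. All *Irf1-/-* libraries were below WT, and the log2 fold change was -0.42 (SE 0.101; limma adjusted *P* = 0.0359). The adjusted *P* of *Snrpd1* was 0.151 and 0.144 without *Irf1-/-* replicates 2 and 4, 0.156 and 0.0740 without WT replicates 2 and 3, and 0.278 with no intensity trend. The count was also 1 of 25 with edgeR. It was 6 of 25 with DESeq2, all lower, against 4.61% of genes tested lower by that tool, and 3 of 25 without WT replicate 4, against 3.19%. With limma it was 3 of 25 with quantile normalization, 2 of 25 with scaling to total reads, and 4 of 25 with the replicate block. In these fits 785 of 17404, 750 of 17432, and 1075 of 17404 genes tested had an adjusted *P* under 0.05 in either direction. The count of substrates was 0 of 25 with no intensity trend. It was also 0 of 25 when *Irf1-/-* replicate 2 or 4, or WT replicate 2 or 3, was left out.

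By the unadjusted *P*, edgeR gave 10 of the 25 genes under 0.05 and DESeq2 gave 9, all with a log2 fold change below 0. The shares of genes tested in either direction were 16.7% and 22%. With limma it was 5 of 25 with no intensity trend, against 12.2%. It was 6 of 25 without *Irf1-/-* replicate 2 and without replicate 4, against 13.1% and 11.3%. It was 11 of 25 with the replicate block and without *Irf1-/-* replicate 3, against 19.8% and 17.6%. Among genes with a mean of at least 100, where all 25 were still tested, it was 10 of 25, against 21.6% of genes tested in either direction. In the main limma fit it was 9 of 25, all below 0, against 8.07% of genes tested in that direction. Besides *Snrpd1* these were the Sm and Sm-like genes *Snrpb* (-0.31), *Snrpd3* (-0.25), and *Lsm4* (-0.21), the nucleolar genes *Fbl* (-0.29) and *Ncl* (-0.27), *Hnrnpa1* (-0.28), *Smarcc1* (-0.22), and *E2f1* (-0.42), with the log2 fold change in parentheses. *Snrpb*, which encodes SmB, had 28325, 31727, and 27579 in WT and 22132, 25737, and 22888 in *Irf1-/-* HSCs. Its libraries did not overlap, and its adjusted *P* with limma was 0.0987. Over 17 alternative fits the adjusted *P* of *Snrpb* was between 0.0133 and 0.367. It was under 0.05 with quantile normalization, scaling to total reads, DESeq2, and the replicate number as a block, and highest without *Irf1-/-* replicate 4. That of *Hnrnpa1* was 0.0991 (0.0254 to 0.342 over the alternatives, under 0.05 with quantile normalization, DESeq2, and the block), that of *Fbl* 0.0842 (0.0205 to 0.317, under 0.05 with DESeq2 and the block), that of *E2f1* 0.153 (0.0214 to 0.491, under 0.05 with DESeq2 and without WT replicate 4), and that of *Ncl* 0.152 (0.0448 to 0.421, under 0.05 with DESeq2). The log2 fold change of *E2f1* was between -0.59 and -0.24 without single libraries, and that of *Lsm4* was -0.14 without *Irf1-/-* replicate 2 (adjusted *P* = 0.667). *Sf3b2*, the substrate of PRMT9, was at -0.10 (-0.18 to -0.06 without single libraries) and *Rps2*, the substrate of PRMT3, was also at -0.10 (-0.16 to -0.05), both with overlap between genotypes.

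Of 7 genes for proteins that read or counteract the mark, 0 had an adjusted *P* under 0.05 with limma, edgeR, or DESeq2, and 1 had an unadjusted *P* under 0.05 with each of these tools, against 16.5% of genes tested with limma. The Tudor domain genes *Smn1*, *Smndc1*, *Tdrd3*, and *Snd1* had log2 fold changes between -0.21 and -0.05, and between -0.28 and -0.02 without single libraries. *Padi4*, which encodes an enzyme that turns arginine into citrulline, was the 1 gene, at 0.28 (limma adjusted *P* = 0.188, between 0.0381 with WT replicate 4 left out and 0.604 with WT replicate 2 left out, where the log2 fold change was 0.18). The median of the 7 was -0.11, and it was -0.05 with quantile normalization, -0.07 with scaling to total reads, -0.03 when WT replicate 3 was left out, and -0.05 when *Irf1-/-* replicate 2 was.

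The supply of the methyl donor was covered by 7 genes, of which 1 was lower by the adjusted *P* of limma, edgeR, and DESeq2, against 1.49% of genes tested lower with limma. At an unadjusted *P* under 0.05 there were 2 of 7 with each tool, against 16.5% with limma, and 4 of 7 without WT replicate 4, against 21.5%. The median log2 fold change was -0.15, and it was -0.07 with quantile normalization and -0.05 and -0.25 without WT replicates 3 and 4. *Ahcy*, which encodes the enzyme that clears S-adenosylhomocysteine, the product that inhibits methyltransferases, had normalized counts of 3849, 4118, and 3838 in WT and of 3111, 3137, and 2960 in *Irf1-/-* HSCs. The libraries were tight and well apart, and *Ahcy* fell by 0.36 on the log2 scale (SE 0.0882; limma adjusted *P* = 0.0422).

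The adjusted *P* of *Ahcy* was near the threshold, and its fold change was too small for a call. Its adjusted *P* was 0.109, 0.0643, and 0.201 without *Irf1-/-* replicates 2, 3, and 4, 0.128 and 0.160 without WT replicates 2 and 3, 0.0503 with no filter on low values, and 0.238 with no intensity trend. *Slc7a5*, which encodes a transporter of methionine and other large neutral amino acids, was at -0.29 (limma adjusted *P* = 0.137, between 0.0265 with WT replicate 4 left out and 0.410 with WT replicate 3 left out), and *Mat2a*, which makes S-adenosylmethionine, was at -0.15 with overlap (-0.05 and -0.25 with WT replicates 3 and 4 left out). *Ddah2*, of the dimethylarginine hydrolase family, was at 0.28 (limma adjusted *P* = 0.140, 0.0440 and 0.0498 with scaling to total reads and with quantile normalization, and 0.361 with no intensity trend). Neither it nor *Ddah1*, at 0.78 with an interval of -0.57 to 2.12 (0.34 to 1.33 without single libraries), met the threshold. *Ddah1* had only 10 to 37 reads per library, and its highest normalized count was in WT replicate 4 (35.5).

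**Figure D3:**
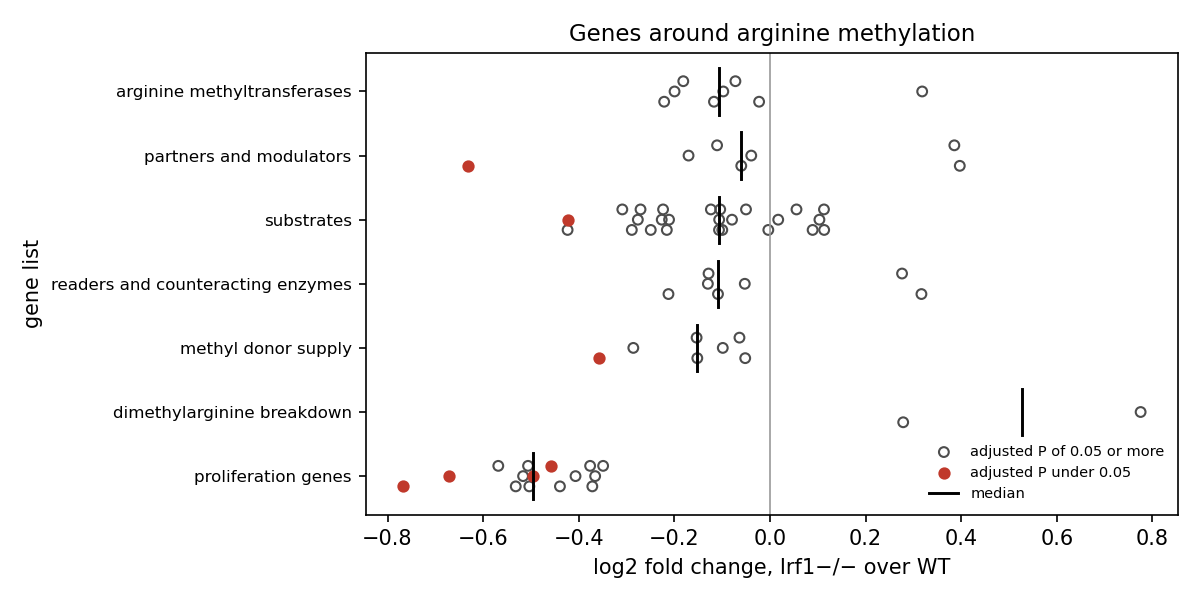
Log2 fold change, *Irf1-/-* over WT (x axis), of the genes of each list (y axis). Each circle is 1 gene, filled where the limma adjusted *P* was under 0.05, and the vertical line is the median of the list. The methyltransferases and their substrates both had a median of -0.11, and all 15 proliferation genes were below 0.

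All 15 proliferation genes had a log2 fold change below 0, their median log2 fold change was -0.50, and 4 of 15 fell with an adjusted *P* under 0.05 by limma (*Top2a* at -0.77, *Mki67* at -0.67, *Cdk1* at -0.50, and *Tyms* at -0.46), against 1.49% of genes tested lower. The other 11 genes (*Ccna2*, *Ccnb1*, *Ccnb2*, *Mcm2*, *Mcm3*, *Mcm4*, *Mcm5*, *Mcm6*, *Mcm7*, *Pcna*, and *Rrm2*) had log2 fold changes between -0.57 and -0.35, with an unadjusted *P* under 0.05 and an adjusted *P* between 0.0582 and 0.266. Of these, *Ccna2*, *Ccnb1*, and *Ccnb2* were at -0.34, -0.20, and -0.33 without *Irf1-/-* replicate 4, and *Mcm4* at -0.23 without WT replicate 3. With no intensity trend the adjusted *P* of the first 4 genes was 0.317, 0.365, 0.326, and 0.321. Without single libraries it reached at most 0.0674, 0.168, 0.197, and 0.218. The number of the 15 genes with an adjusted *P* under 0.05 depended on the fit. With limma it was 0 with no intensity trend, where 9 had an unadjusted *P* under 0.05. It was also 0 when *Irf1-/-* replicate 4, WT replicate 2, or WT replicate 3 was left out, where 13, 14, and 13 had an unadjusted *P* under 0.05, and 1 and 5 without *Irf1-/-* replicates 2 and 3. It was 7 with a mean of at least 100, 9 with quantile normalization, 10 with scaling to total reads, and 15 with the replicate block. In these fits 669 of 12069, 785 of 17404, 750 of 17432, and 1075 of 17404 genes tested had an adjusted *P* under 0.05 in either direction. The count of the 15 genes was 6 with edgeR, against 572 of 17362 genes tested in either direction. It was 14 with DESeq2 and with limma without WT replicate 4, against 4.61% and 3.19% of genes tested lower. The summed normalized counts of the 15 genes were 243966, 270605, and 195229 in WT and 178833, 186717, and 153757 in *Irf1-/-* HSCs, with *Mcm6* as the most abundant gene. Each WT sum was above each *Irf1-/-* sum. WT replicate 4 had the lowest sum of the WT libraries, and was also the lowest WT library for 7 of 8 methyltransferase genes. The latter count depended on the scaling. With all libraries scaled to equal sums, *Prmt1*, *Prmt2*, and *Prmt5* were lowest in WT replicate 2, and *Prmt5* was highest in WT replicate 4. The part of proliferation in the lower values of the methyltransferases and their substrates was not tested.

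Of 4 megakaryocyte genes, 4 had a log2 fold change below 0 and 2 were called lower, *Pf4* at -1.11 (limma adjusted *P* = 0.00334, and 0.238 with no intensity trend) and *Gp1ba* at -0.69 (0.0183, 0.259 with no intensity trend, and up to 0.0770 without single libraries), against 1.91% of genes called in either direction. Their sums were 46549, 59763, and 44627 in WT and 39940.1, 24622, and 35497 in *Irf1-/-* HSCs, and *Itga2b* was the most abundant, at -0.56 (-0.35 without *Irf1-/-* replicate 3; limma adjusted *P* = 0.0922, 0.0449 without WT replicate 4, and 0.440 with no intensity trend). Of 5 erythroid genes, 3 were tested and 1 was called lower, *Klf1* at -0.72 (limma adjusted *P* = 0.0361, 0.316 with no intensity trend, 0.0657 with scaling to total reads, and up to 0.117 without single libraries). The sums of the erythroid list were 3705, 3828, and 2995 in WT and 2924, 2216.5, and 2731 in *Irf1-/-* HSCs, with *Epor* as the most abundant.

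Of the 8 HSC genes, *Fgd5* (0.83) and *Procr* (0.52) rose and *Ly6a* (-0.43, adjusted *P* up to 0.115 without single libraries) fell by the adjusted *P* of limma, against 3.22% of genes tested in either direction. With no intensity trend the adjusted *P* of these 3 genes was 0.0511, 0.227, and 0.262. *Slamf1* (0.24), *Hlf* (0.25, and 0.16 without WT replicate 3), and *Mecom* (0.30) had an unadjusted *P* under 0.05 only, except that *Mecom* passed the adjusted threshold with DESeq2, quantile normalization, and scaling to total reads (adjusted *P* between 0.0250 and 0.366 over 17 alternative fits). The 8 genes summed to 193972, 199137, and 181373 in WT and to 192283, 215869, and 195394 in *Irf1-/-* HSCs. With limma, 0 of the 3 B cell, 2 T cell, and 6 granulocyte and monocyte genes tested had an adjusted *P* or an unadjusted *P* under 0.05. By the adjusted *P* edgeR also gave 0. DESeq2 tested only 1, 1, and 3 of these genes, without *S100a8* and *S100a9*, and gave 0 by the adjusted *P*. By the unadjusted *P* edgeR gave 2 of the 6, *S100a8* and *S100a9*. The part of these cell types in the values of the methyltransferases was not tested.

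Across the 6 libraries, *Prmt1* was most similar to *Vdac3* (Pearson *r* of 0.998 on the log2 scale), *Psma6* (0.995), and *Ntpcr* (0.995) among 17403 other genes. *Prmt5* was most similar to *Rabif* (0.994), *Hmgn1* (0.993), and *Mad1l1* (0.992). Within the family, *r* was 0.91 between *Prmt5* and *Carm1*, 0.84 between *Prmt1* and *Prmt5*, and -0.43 between *Prmt1* and *Prmt2*. These are descriptions of 6 points that share their genotype and the sums of their libraries.

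Sequences upstream of the genes were examined because *Irf1-/-* HSCs lack a factor that binds the interferon-stimulated response element (ISRE). RefSeq promoter windows of GRCm38.p6 were matched by symbol for 7 of the 8 genes, all but *Carm1*, and the 250 bases before the gene start were searched on both strands. The ISRE core GAAANNGAAA was found in 0 of 7 windows, and in 2.98% of 32851 windows of all genes. The CCAAT box (CCAAT) was found in 4 of 7 (*Prmt1*, *Prmt2*, *Prmt3*, and *Prmt5*) and in 33.8% of all windows, and the E box CACGTG in 2 of 7 (*Prmt1* and *Prmt3*) and in 6.02%. A match is only a description of the letters in this window, and a missing match says nothing about binding elsewhere.

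The windows of *Prmt1* (chr7:44986421-44986670, minus strand) and *Prmt2* (chr10:76237866-76238115, minus strand) are printed because these 2 genes had libraries that did not overlap, in opposite directions. Capitals mark the CCAAT boxes and, in *Prmt1*, the E box CACGTG.
Prmt1: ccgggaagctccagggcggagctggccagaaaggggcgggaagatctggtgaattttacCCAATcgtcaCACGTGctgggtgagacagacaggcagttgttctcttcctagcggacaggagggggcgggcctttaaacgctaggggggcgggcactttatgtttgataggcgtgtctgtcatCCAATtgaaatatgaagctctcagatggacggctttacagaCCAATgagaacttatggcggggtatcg
Prmt2: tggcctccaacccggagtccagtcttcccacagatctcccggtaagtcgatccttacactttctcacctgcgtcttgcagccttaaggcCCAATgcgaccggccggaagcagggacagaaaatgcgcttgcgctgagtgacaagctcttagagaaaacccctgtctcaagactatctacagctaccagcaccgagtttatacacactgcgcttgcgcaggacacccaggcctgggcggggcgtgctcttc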

How the data were processed

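HSCs of 3 WT and 3 *Irf1-/-* mice were profiled by bulk RNA-seq, and samples were grouped by their labels. The authors amplified cDNA with a SMART-Seq kit, made Nextera XT libraries, and trimmed, aligned, and counted reads per gene. The submitters' processing notes name Trim Galore, HISAT2, and the build mm39. The deposited unit is a signal, not a raw count: the authors divided the reads of every gene by 1 size factor per library. Multiplying back gave whole reads for 100% of values (tolerance 0.01 reads), so the reads could be recovered. Reads are not independent molecules. Libraries of the same genotype differed by more than sampling noise (chi-square per gene 16.0 to 30.0).

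Values were transformed as log2(normalized count + 1), and genes with a mean of at least 10 were tested in limma 3.58.1 (R 4.3.3; moderated statistics, with the prior variance following a trend in intensity), with Benjamini-Hochberg adjustment over all genes tested. Fold changes are on this scale. A call needed an adjusted *P* under 0.05 together with a log2 fold change beyond 0.58 in either direction. As the table holds no raw counts, the count models served as alternatives on the recovered reads, with the quasi-likelihood test of edgeR 4.0.16 and with DESeq2 1.42.0. The tests were tried on simulated data, and no result given here rests on that trial. Further alternatives were other pseudocounts, filters, scalings, no trend, the replicate number as a block, and each library left out. Scaling to total reads, coding length, and the counts by scaling were added after seeing the data.

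Named genes were *Irf1*, the 8 methyltransferases, list genes that were called, had an unadjusted *P* under 0.05, or are partners of PRMT5 or PRMT1, and the 3 genes most similar to *Prmt1* and to *Prmt5*. Other genes are named as examples of their list, after their values were seen. Members and lists were chosen with earlier results of these data known. Lists were partners, substrates, readers and counteracting enzymes, methyl donor supply, dimethylarginine breakdown, other arginine methyltransferases (*Prmt8*, *Ndufaf7*, and *Mettl23*, of which 0 of 2 tested had an adjusted or unadjusted *P* under 0.05 with limma, edgeR, or DESeq2, at a median log2 fold change of -0.09, between -0.12 and -0.03 in the alternatives), proliferation, and markers of HSCs and of other cells. In the list counts, sums, and medians, 2 genes were left out and are not reported here. Transcript lengths came from GENCODE vM1, matched by symbol, with *Prmt9* under its older symbol *Prmt10*. Figures were drawn with matplotlib 3.10.9.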

Additional observations from a re-analysis of the deposited data

How the results depend on the processing

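None of the 8 methyltransferase genes had an adjusted *P* under 0.05 in any of the 17 alternative fits. Their log2 fold changes kept their sign in 133 of 136 values, and the exceptions were all *Prmt9*, at 0.0072 with quantile normalization, 0.021 with scaling to total reads, and 0.094 without WT replicate 3 (range -0.16 to 0.094 over fits without single libraries). The cause was not tested. The number of the 8 genes with an unadjusted *P* under 0.05 was 1 with no intensity trend (12.2% of all genes tested), between 1 and 4 without single libraries (11.3% to 21.5%), and 4 with the replicate block (19.8%), against 2 (16.5%). The number whose libraries did not overlap was 4 with scaling to total reads and 3 with quantile normalization, against 2. Whether the replicate numbers pair the samples was not settled, as there were only 3 libraries of each genotype to compare. The correlations of deviations between samples with the same number were -0.094, 0.246, and 0.147 for replicates 2, 3, and 4. *Irf1-/-* replicates 3 and 4 correlated best with the WT library of their own number. *Irf1-/-* replicate 2 correlated best with WT replicate 4 (0.251). With the replicate block, limma gave 1075 genes past an adjusted *P* of 0.05, against 561, and this changed no call on the 8 genes. Over all genes, the calls depended most on the intensity trend of limma. With no trend, 7 genes were called higher, 33 lower, and 40 had an adjusted *P* under 0.05. DESeq2 called 295 higher and 209 lower and gave 1282 with an adjusted *P* under 0.05. Without single libraries there were 83 to 304 genes called higher, 105 to 265 lower, and 230 to 992 with an adjusted *P* under 0.05, with fewer samples in each fit. With no threshold on the fold change, 301 were higher and 260 lower. The largest shift of the median of all genes in any fit was 0.043 on the log2 scale. The 8 genes had at least 1311 reads per library. Depth limits the genes with few reads, and those with a mean under 10 were not tested. With 1 library per mouse, the spread between mice and the noise of a library cannot be told apart.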
